A study of Mus musculus with 6 samples.

Results

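The cells annotated as lymphocytes in the uteri of aged mice are described here, in a library from control (CO) uteri and in a library from uteri of mice exposed to diethylstilbestrol (DES) after birth. They were the cells that the authors' annotation named Lymphocytes, that passed the authors' quality filter and that had a column of counts, and they numbered 662 of 21954 annotated cells. The CO library held 423 of them among 12253 annotated cells and the DES library 239 among 9701. All mice were of the outbred CD-1 strain and were 12 months old, and on each of days 1 to 5 of life the pups had received a subcutaneous injection, of corn oil in CO and of 1 mg/kg/day of DES, a synthetic estrogen, in the exposed group. The CO mice were taken in estrus and the DES mice in the persistent estrus that they show. Each library is 1 suspension, made by trypsin digestion from 2 pooled CO uteri or 4 pooled DES uteri, so that no spread between mice can be had from the cells. A second readout came from Visium slides, on which 2 CO and 2 DES sections, each from a different mouse, were counted over spots that can each hold several cells.

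Lymphocytes of the uterus are mostly T cells, natural killer (NK) cells and B lineage cells. T cells read antigen with a receptor built of α and β or of γ and δ chains, and the signal is passed on by the CD3 chains. NK cells and other innate lymphoid cells lack that receptor and carry activating and inhibitory receptors such as NKp46 (Ncr1) and the Ly49 family (Klra genes). Plasma cells, the end stage of the B lineage, secrete antibody, and at mucosal surfaces much of it is dimeric IgA held together by the J chain (Jchain).

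The library totals set the precision. The CO lymphocytes held 2247727 unique molecular identifiers (UMIs, each 1 counted transcript), with 4033 UMIs and 1601 genes in the median cell, and the DES lymphocytes held 1489460 UMIs, with medians of 5599 UMIs and 1955 genes. The least deep lymphocyte had 2196 UMIs in CO and 1137 in DES. The floor was that of the library, since the least deep of the other annotated cells had 2197 UMIs in CO and 1009 in DES. Among the cells that the annotation gave no type it was 2196 and 539 UMIs. Shares of cells are thus compared between libraries with unlike depth floors, and the part of this in their differences was not tested. Mitochondrial genes took a median of 5.57% of the UMIs in CO lymphocytes and 4.68% in DES. The libraries shared 180 cell barcodes, of which 1 was a CO lymphocyte and 1 a DES lymphocyte. Levels are given as CPM, a gene's UMIs summed over a group of cells and scaled to the group's total, with exact Poisson limits at 95%. Shares of cells carry Clopper-Pearson limits at 95%. Both cover counting error only, and since each condition is 1 library the cells of CO and DES were not compared by a test.

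All 6 markers given for these cells were far above the other annotated cells of the same library. Ptprc (CD45, the phosphatase on all white blood cells) stood at 718 CPM in CO lymphocytes and 812 CPM in DES, which was 109-fold (101 to 118) and 105-fold (97.9 to 113) the level of the other annotated cells. Cd52, a small surface glycoprotein of lymphocytes and other leukocytes, stood at 1519 and 1445 CPM, and Rac2, a GTPase of blood cells, at 414 and 461 CPM. Cd3e, a chain of the T cell receptor complex, was lower in level, at 81.4 CPM in CO and 107 CPM in DES. Nkg7, a granule protein of cytotoxic cells, stood at 266 and 204 CPM and had no UMI in any of the 67 CO and 364 DES cells annotated as myeloid. Ms4a4b, a membrane protein of T cells, was the only given marker past 2-fold between the libraries, at 258 CPM in CO and 117 CPM in DES, a ratio of DES to CO of 0.452 (0.379 to 0.536).

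**Figure D1:**
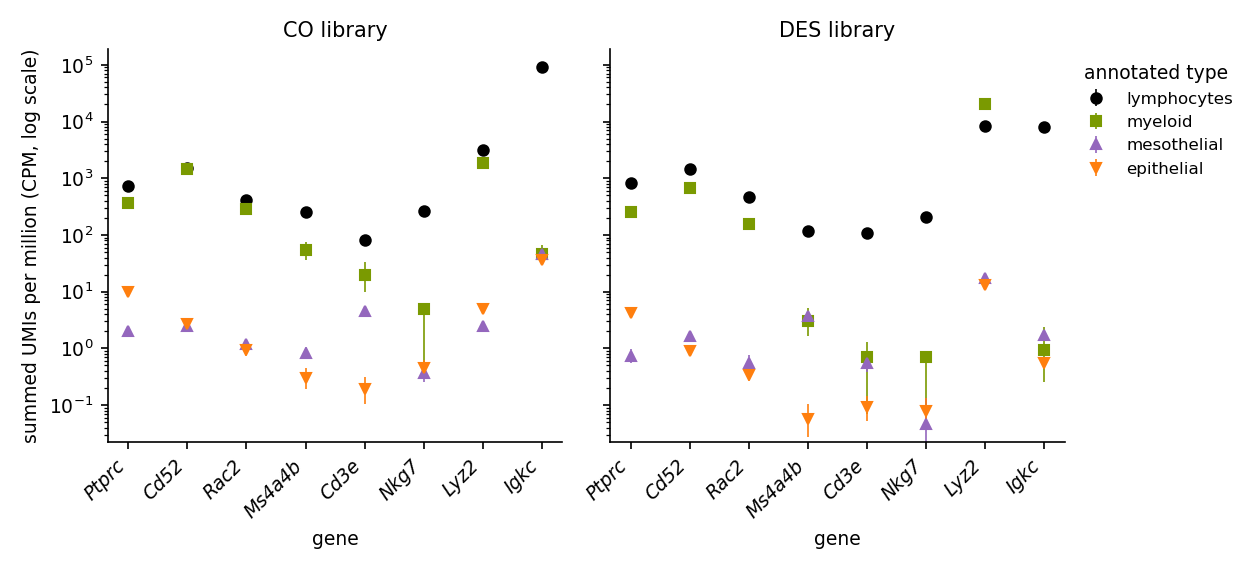
Levels of 8 genes in CPM on a log axis in lymphocytes, annotated myeloid, epithelial and mesothelial cells of the CO and the DES library, with exact Poisson 95% intervals. Where a group had no UMI the point stands at the level of 3 UMIs, and in the lymphocytes Ptprc sits at 718 CPM (CO) and 812 CPM (DES) against 1.998 and 0.743 CPM in mesothelial cells.

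After each cell was thinned to 1000 UMIs, 49.6% of the CO lymphocytes (44.8 to 54.5) and 51.5% of the DES lymphocytes (44.9 to 58.0) held a UMI of Ptprc. In mesothelial cells the same share was 0.248% in CO and 0 of 3837 cells in DES. Mesothelial cells, which should lack Ptprc, had more UMIs per cell before thinning, with medians of 10436 in CO and 12329 in DES. Without thinning, 54 CO lymphocytes (12.8%) and 23 DES lymphocytes (9.62%) had no UMI of Ptprc.

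Myeloid genes were also high in these cells, which goes against the label. The 16 genes of the myeloid list summed to 8110 CPM in CO lymphocytes and 20279 CPM in DES. Lyz2 (lysozyme of macrophages and neutrophils) stood at 3121 and 8351 CPM, and Csf1r, the receptor that macrophages need to survive, at 95.7 and 258 CPM. At least 3 UMIs of 11 myeloid genes were found in 166 of 423 CO lymphocytes and in 134 of 239 DES lymphocytes. The annotated group is therefore named by its annotation in what follows, and its parts by the genes they hold.

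Lymphocytes made up 3.45% of the annotated CO cells (3.14 to 3.79) and 2.46% of the annotated DES cells (2.16 to 2.79). With all cells of a library as the base, cells given no type included, the shares were 1.31% in CO (1.19 to 1.44) and 1.47% in DES (1.29 to 1.66), and the intervals overlapped. A further 124 CO cells and 0 DES cells were named lymphocytes but had no column of counts, and with such cells included the CO share was 4.34%. Among annotated leukocytes the lymphocytes were 86.3% in CO (83.0 to 89.2) and 39.6% in DES (35.7 to 43.7), beside annotated myeloid types at 0.547% of annotated CO cells and 3.75% of annotated DES cells.

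Genes that set lymphocytes apart from the other annotated cells were counted at 50 CPM or more in either group and at least 2-fold. In CO, 483 of 3504 such genes (13.8%) were higher in the lymphocytes, and in DES 830 of 3692 (22.5%), and in either direction 37.4% and 43.3% were called. Genes of a lineage passed this filter mainly through the group that holds it, so the lists are given by their sums over every gene in the table. The 15 NK genes summed to 1088 CPM in CO lymphocytes and 514 CPM in DES, and to 2.56 and 0.790 CPM in mesothelial cells. The 16 T cell genes summed to 1078 and 1165 CPM in lymphocytes and to 8.89 and 4.66 CPM in mesothelial cells. In the other direction, the 6 mesothelial genes summed to 175 and 142 CPM in lymphocytes against 3399 and 3520 CPM in mesothelial cells. Levels of other tissue genes were thus not 0 in lymphocytes, for example 335 CPM of Krt8, a keratin of epithelium, in CO lymphocytes against 943 CPM in the other CO cells.

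Some of the largest ratios belonged to few cells. In CO the largest were those of Igkv17-121, Iglv1, Prg2, Iglv3, Ccl1, Ngp, Jchain, Camp, Igkc and Ly6c2, of which Igkc reached 90880 CPM in the lymphocytes and 40.7 CPM in the other cells. In DES they were those of Camp, Ngp, Igkc, Jchain, Adgre4, Igha, Ly6c2, Cd209a, Gpr141 and Nkg7, with Igkc at 8162 and 0.865 CPM. Camp and Ngp, granule proteins of immature neutrophils, each came almost wholly from 3 cells in either library. All 182 UMIs of Ccl1, a chemokine of activated T cells, came from 3 CO cells, and 174 of them from 1 cell.

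Single cells were sorted by the genes that define the lineages. A cell with at least 1 UMI of Cd3d, Cd3e or Cd3g was put in the T gate, a remaining cell with a B cell gene, from a set that includes Cd79a, Cd79b and Ms4a1, in the B gate and a remaining cell with Ncr1, Klrb1c or Klre1 in the NK gate. The T gate took 117 CO cells (27.7%) and 72 DES cells (30.1%). The B gate took 90 CO cells (21.3%, 17.5 to 25.5) and 21 DES cells (8.79%, 5.52 to 13.1), and the NK gate 48 CO cells (11.3%, 8.49 to 14.8) and 12 DES cells (5.02%, 2.62 to 8.61). With every cell thinned to 1000 UMIs the T gate took 17.7% (CO) and 20.1% (DES), the B gate 15.1% and 7.11%, and the NK gate 11.8% and 3.35%. Thinned mesothelial cells, which should lack these genes, met the T gate in 0.466% (CO) and 0.104% (DES), the B gate in 0.379% and 0.104%, and the NK gate in 0.0146% and 0.0261%. The B gate background was higher elsewhere, at 1.01% of CO and 0.685% of DES epithelial cells and at 14 of 364 annotated DES myeloid cells (3.85%, 2.12 to 6.37), an interval that overlapped that of the DES lymphocytes (4.20 to 11.1). The B gate intervals did not overlap, thinned or not. The NK gate intervals were apart after thinning (8.90 to 15.3 in CO and 1.46 to 6.49 in DES) and just overlapped without it, and the T gate held like shares in both libraries.

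Further gates were chosen after the data were seen. Cells with at least 100 UMIs of Jchain were set apart as plasma cells, and no cell lay between 11 and 99 UMIs. There were 33 of them in CO (7.80%, 5.43 to 10.8) and 1 in DES (0.418%, 0.0106 to 2.31). Once they were removed the B gate held 58 CO cells (13.7%, 10.6 to 17.4) and 20 DES cells (8.37%, 5.19 to 12.6), and these intervals overlapped. Over all annotated cells these B gate shares were 0.473% (0.360 to 0.611) in CO and 0.206% (0.126 to 0.318) in DES. The NK gate then held 0.392% (0.289 to 0.519) and 0.124% (0.0639 to 0.216). On that base the B and NK intervals lay apart, and those of the T gate overlapped, at 0.955% (0.790 to 1.143) and 0.742% (0.581 to 0.934). Cells in no T, B or NK gate with at least 3 UMIs of the 11 myeloid genes were 146 in CO (34.5%, 29.99 to 39.3) and 120 in DES (50.2%, 43.7 to 56.7). After that only 22 CO cells (5.20%) and 14 DES cells (5.86%) were left in no gate.

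**Figure D2:**
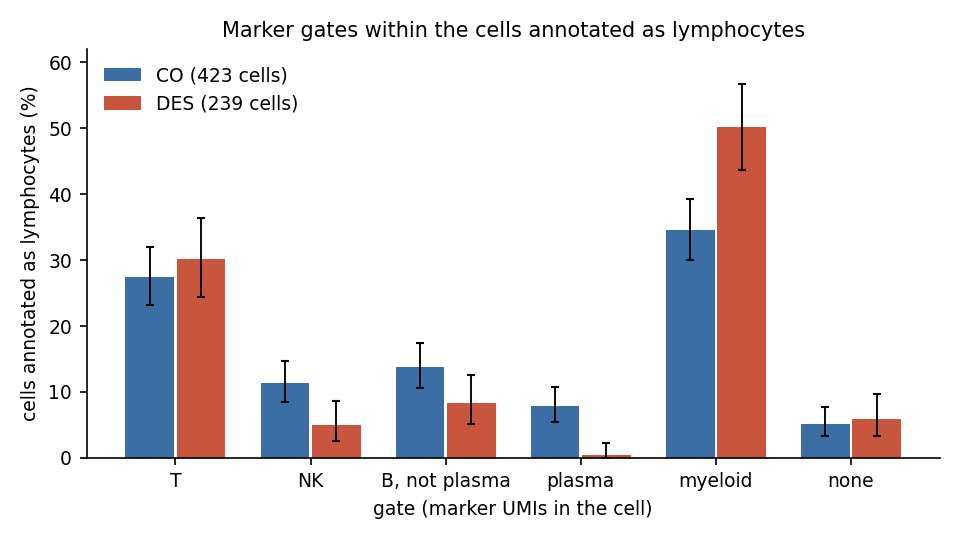
Share of the cells annotated as lymphocytes, in percent, that fell in each gate in CO (423 cells) and DES (239 cells), with bars for exact Clopper-Pearson 95% intervals. T cells hold 27.4% and 30.1%, plasma cells make up 7.80% in CO and 0.418% in DES, and cells with myeloid genes alone make up 34.5% and 50.2%.

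Leiden clustering of the CO and DES lymphocytes together gave 14 clusters, which were formed on the same genes and are only described here. Cluster 0 was T-cell-like, led by Izumo1r, Themis, Cd6, Lef1 and Cd5 and with 80 of 83 cells in the T gate. Cluster 9, of 34 cells, had Il17a, Tcrg-C1, Cd163l1 and Tcrg-C2 among its leading genes, and 33 of its cells met the T gate. Cluster 12, of 25 cells, was led by Il1rl1 and Gata3, genes of type 2 lymphocytes, while 23 of its cells held a UMI of a Cd3 gene, and it was left unnamed. Clusters 5 and 8 were NK-like, the first with Gzmc, Xcl1 and Ly49 genes and the second with Gzma, Prf1 and Klrb1c. In cluster 5, 31 of 59 cells met the T gate, so that the T gate also takes cells with NK receptor genes. Cluster 3 was B-cell-like (Cd22, Ms4a1, Pax5) and cluster 10 plasma-cell-like, holding 34 cells that were all plasma-gated.

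The remaining clusters went against the name lymphocyte. Cluster 7 was myeloid-like, with 41 cells led by Camp, Ngp, S100a8, S100a9 and Ly6g, genes of neutrophils. Cluster 4 was also myeloid-like, of 59 cells, with Id3, Cd300a, Aif1 and Csf1r among its leading genes. Clusters 1, 2, 6, 11 and 13 were left unnamed, and among their leading genes were Vcan and F13a1 (cluster 1), Cd300e and Treml4 (cluster 2), Ccl22 and Xcr1 (cluster 6), Siglech and Ccr9 (cluster 11) and Ccl12 and Ms4a7 (cluster 13). Coarser clustering gave 10 clusters and finer clustering 15, with adjusted Rand indices of 0.642 and 0.915 against these 14.

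**Figure D3:**
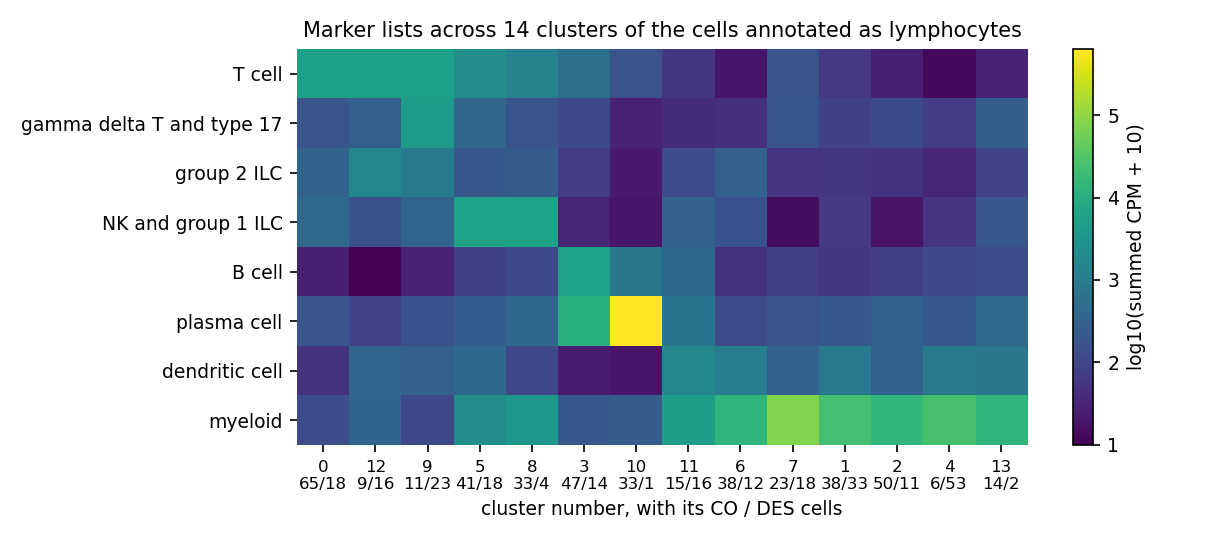
Summed CPM of 8 gene lists, as log10(CPM + 10), in the 14 clusters of lymphocytes, with the number of CO and DES cells of each cluster. T cell genes are highest in clusters 0, 9 and 12, NK genes in clusters 5 and 8, plasma cell genes in cluster 10, and myeloid genes in clusters 7, 4 and 1.

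Antibody genes differed widely between the libraries. Igkc, the constant part of the κ light chain, stood at 90880 CPM in CO lymphocytes and 8162 CPM in DES, a ratio of 0.0898 (0.0882 to 0.0915). Igha, the IgA heavy chain, stood at 23479 and 1956 CPM, and Jchain at 20630 and 1741 CPM. Of the 6 plasma cell genes counted, 5 were lower in DES (Jchain, Mzb1, Igha, Ighg1 and Igkc), where 3.34% of all 2993 genes counted were. These values came from few cells. The 33 CO plasma cells held 98.8% of the UMIs of 124 immunoglobulin genes in CO lymphocytes, and in DES 1 cell held 2592 of 2593 UMIs of Jchain and 11628 of 12157 UMIs of Igkc. Immunoglobulin genes made up 11.7% of all UMIs of the CO lymphocytes and 1.06% of the DES lymphocytes.

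The plasma cells were of nearly 1 class. Igha was the leading heavy chain in 32 of the 33 CO plasma cells and in the 1 DES plasma cell, and Ighg1 led in the remaining CO cell, which held all 400 UMIs of Ighg1. Ighg1 was therefore at least 88.4-fold lower in DES by count, which is the difference of 1 cell. Igkv17-121, a κ variable segment, was found in 2 CO cells with 307 and 62 UMIs and in no DES cell. Iglv1, a λ variable segment, was more widely spread, with 575 UMIs in 29 CO cells against 11 UMIs in 1 DES cell. Prg2, known as a granule protein of eosinophils, was among the leading genes of the plasma-cell-like cluster, with 408 UMIs in 29 CO lymphocytes and 3 UMIs in 1 DES lymphocyte. Outside the plasma cells, Igkc had 17 UMIs over the 48 CO NK-gated cells and 0 over the 12 DES NK-gated cells, and it stood at 46.2 CPM in mesothelial cells of the CO library and 1.73 CPM in those of the DES library.

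Over all lymphocytes, DES differed from CO by at least 2-fold at 282 of 2993 genes (9.42%), with 182 higher (6.08%) and 100 lower (3.34%), and the median ratio over all 2993 genes was 1.17. Without the plasma cells, an alternative chosen after seeing the data, 87 genes were higher (2.75%) and 117 lower (3.7%) of 3162, together 6.45%, and the median ratio was 1.01. The plasma cells thus moved the scale of all other genes, and the split between higher and lower genes with it. Without the cells that held at least 3 myeloid UMIs, also chosen after seeing the data, 219 genes were higher (7.99%) and 102 lower (3.72%) of 2742. Of 157 list genes counted over all lymphocytes, 18 were higher and 27 lower.

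The T cell list showed no call in either direction over all lymphocytes, with 0 of 11 genes past 2-fold and a median ratio of 1.07. Without the cells that held myeloid UMIs, 5 of 12 were higher (Cd3e, Cd3g, Trac, Lat and Bcl11b), where 7.99% of all genes were, none was lower and the median ratio was 1.89. Those cells still include the CO plasma cells. Without the plasma cells instead, 0 of 11 were higher, Cd2 was lower and the median ratio was 0.862, so that the order of the T cell list followed the cells left out. Over all lymphocytes the NK list had 5 of 10 genes lower (Ncr1, Klrb1c, Klre1, Klra4 and Klra7), none higher and a median ratio of 0.489, where 3.34% of all genes were lower. These 5 genes reached 50 CPM in CO only, so their direction was set by the filter. Without the cells that held myeloid UMIs only Klra4 and Klra7 of 10 were lower (3.72% of all genes) and the median ratio was 0.802, whereas without the plasma cells 9 of 10 were lower (3.7% of all genes) and it was 0.390. Ncr1 stood at 133 CPM in CO (300 UMIs) and 41.6 CPM in DES (62 UMIs), a ratio of 0.312 (0.233 to 0.411). Klra7, a Ly49 receptor, stood at 94.8 and 20.1 CPM, a ratio of 0.213 (0.140 to 0.312). In the B cell list 1 of 4 genes was lower, Cd79a, the signalling chain of the B cell receptor, at 374 and 138 CPM, and the median ratio was 0.634. Without the cells that held myeloid UMIs Cd79a was at 568 and 365 CPM, a ratio of 0.643 (0.547 to 0.754) and no longer past 2-fold, while Fcmr, the receptor of IgM, was higher and the list's median ratio was 1.34. Without the plasma cells 2 of 4 B cell genes were lower (Cd79a and Ms4a1), none was higher and the median ratio was 0.525. The myeloid list had 8 of 15 genes higher (Lyz2, Csf1r, Cd68, Cd14, Fcgr3, S100a8, S100a9 and Spi1) and none lower, where 6.08% of all genes were higher, with a median ratio of 2.15. Without the plasma cells 5 of 15 were higher (Lyz2, Csf1r, Fcgr3, S100a8 and S100a9) beside 2.75% of all genes, the calls of Cd68, Cd14 and Spi1 were lost and the median ratio was 1.74.

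Genes of other tissue cells were lower in DES lymphocytes as well. Krt8, Krt19 and Cd24a of 6 epithelial genes, and Col6a3, Col1a1 and Col1a2 of 3 stromal genes, were at least 2-fold lower, where 3.34% of all genes were. The 9 epithelial genes summed to 1650 CPM in CO lymphocytes and 1004 CPM in DES, and the 6 stromal genes to 367 and 117 CPM. The part of these tissue genes, and of the myeloid cells and sequencing depth, in the differences between the libraries was not tested. Of 13 immediate early and stress genes, 5 were lower in DES, again beside 3.34% of all genes (Fosb, Jun, Egr1, Hspa1a and Hspa1b). Of 3 genes of dividing cells counted only Top2a was lower, at 53.8 and 10.7 CPM, none was higher, and the median ratio was 0.818. Top2a reached 50 CPM in CO only, so its direction was set by the filter.

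The 10 genes with the largest ratio of DES to CO were Gm5483, Cd177, Il17a, Cxcl3, Fabp5, Ear1, Wfdc21, Cxcr6, Hp and Lgals3. Gm5483 rested on 1 DES cell with 94 of 123 UMIs. Cd177, a neutrophil surface protein, was spread over 46 DES cells with at most 6 UMIs each, at 56.4 CPM against 3.11 CPM in CO. Lgals3, a lectin of macrophages, stood at 359 and 1466 CPM, a ratio of 4.08 (3.76 to 4.43). Il17a, the cytokine of type 17 lymphocytes, stood at 20.9 and 174 CPM, a ratio of 8.32 (6.08 to 11.6), and Cxcr6, a chemokine receptor of lymphocytes that stay in tissue, at 35.6 and 156 CPM, a ratio of 4.40 (3.40 to 5.74). Ccl3, a chemokine that draws leukocytes, stood at 43.6 and 151 CPM.

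The 10 smallest ratios were those of Retnla, Prg2, Ighg1, Igkv17-121, Prss29, Spink1, Iglv1, Ighg2b, RP23-435I4.11 and Iglv3. Retnla, a secreted protein of alternatively activated macrophages, had 1412 UMIs in 18 CO cells and 1 UMI in 1 DES cell, a ratio of 0.00107 (2.7e-05 to 0.00596). Of these CO cells 12 lay in cluster 6 and 5 in cluster 13, and the 2 highest held 37.7% of the UMIs. Spink1 and Prss29, a protease inhibitor and a protease of uterine glands, had 169 and 182 UMIs in CO lymphocytes and none in DES, and led cluster 2 through 4 and 9 cells.

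The T-gated cells were compared without the cells that also held at least 3 myeloid UMIs or met the plasma gate, as an alternative chosen after seeing the data, which left 111 CO cells and 64 DES cells. These cells carried little of the myeloid genes, with 3 UMIs of Lyz2 in CO and 9 in DES. Their median depth was 3367 UMIs in CO and 4018.5 UMIs in DES. At 100 CPM or more in either library, 73 of 1486 genes were higher in DES (4.91%) and 94 lower (6.33%), and the median ratio was 0.986. In the whole T gate 96 of 1490 genes were higher (6.44%) and 87 lower (5.84%). Cd3d stood at 435 and 465 CPM, a ratio of 1.07 (0.857 to 1.33), and Trac, the constant part of the α chain, at 222 and 289 CPM, a ratio of 1.30 (0.969 to 1.75).

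Clusters held the libraries in different numbers, so that a comparison over the T gate also compares mixes of cells. Cluster 0 had 65 CO and 18 DES cells, cluster 5 had 41 and 18, cluster 9 had 11 and 23 and cluster 12 had 9 and 16. How far this mix, rather than levels within a kind of T cell, went with the ratios that follow was not tested.

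Of 11 genes in the table from the list of γδ and type 17 genes, 4 were counted in these cells, and these 4 were higher in DES, where 4.91% of all genes were. They were Trdc (136 and 312 CPM), Tcrg-C2, Il17a and Maf (126 and 272 CPM), and Tcrg-C2 reached 100 CPM in DES only. Il17a stood at 100.2 CPM in CO and 860 CPM in DES, a ratio of 8.59 (6.28 to 12.0). Only 2 CO cells held it, with 37 and 10 UMIs, and 9 DES cells, of which the 2 highest held 126 and 73 UMIs. Without the 2 highest cells the DES level was 199 CPM from 60 UMIs, and CO had no UMI left. Every one of these 11 cells lay in cluster 9. Tcrg-C2, a constant gene of the γ chain, stood at 23.4 and 166 CPM, with 9 of 111 CO cells and 19 of 64 DES cells holding a UMI.

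The shares of cells with these genes were less far apart at equal depth. A UMI of Trdc, Tcrg-C1, Tcrg-C2 or Tcrg-C4 was found in 32 of 111 CO cells (28.8%, 20.6 to 38.2) and in 34 of 64 DES cells (53.1%, 40.2 to 65.7). After thinning to 1000 UMIs the shares were 14.4% (8.47 to 22.4) and 20.3% (11.3 to 32.2), and the intervals overlapped. An α or β constant gene was held by 94.6% and 95.3% of the cells, so that most cells with a γ or δ gene also held an α or β gene, and only 3 DES cells held the former alone.

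Of 5 genes of tissue residency counted in the T-gated cells, 3 were higher in DES (Cd69, Cxcr6 and Rgs1), where 4.91% of all genes were, none was lower and the median ratio was 2.64. Cxcr6 stood at 147 CPM in CO (69 UMIs) and 708 CPM in DES (213 UMIs), a ratio of 4.81 (3.65 to 6.41). It was found in 27 of 111 CO cells and 39 of 64 DES cells, and after thinning in 10.8% (5.71 to 18.1) and 35.9% (24.3 to 48.9), so that the intervals did not overlap at equal depth. Cxcr6 was not held by cluster 9 alone. Of its 233 UMIs in DES lymphocytes, cluster 9 held 156, cluster 12 held 42 and cluster 5 held 32. Rgs1, a brake on chemokine signals, stood at 663 and 2239 CPM, and was found in 34.2% (25.5 to 43.8) and 62.5% (49.5 to 74.3) of thinned cells. S1pr1, the receptor with which lymphocytes leave tissue, was lower, at 183 and 76.4 CPM, a ratio of 0.417 (0.251 to 0.667). Ccr7, Lef1 and Klf2, other genes of recirculating T cells, were within 2-fold, with ratios of 0.809, 0.844 and 0.874. A UMI of Ccr7 was found in 27.9% of CO cells (19.8 to 37.2) and 20.3% of DES cells (11.3 to 32.2), and after thinning in 15.3% (9.18 to 23.4) and 3.13% (0.381 to 10.8), so that the shares lay further apart at equal depth than the levels did, with intervals that overlapped.

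Of 9 checkpoint genes only Ctla4 and Pdcd1 were counted, both because they reached 100 CPM in DES, so their direction was set by the filter. Ctla4 stood at 93.8 and 326 CPM, a ratio of 3.47 (2.41 to 5.07), and Pdcd1 at 53.3 and 116 CPM, a ratio of 2.18 (1.27 to 3.804). Calca, which encodes the neuropeptide CGRP, stood at 8.52 CPM (4 UMIs) and 106 CPM (32 UMIs), a ratio of 12.5 (4.42 to 48.5). Of the 10 DES lymphocytes with Calca 8 lay in cluster 9. Ccl5, a chemokine of effector T cells, stood at 959 and 2053 CPM, and Nr3c1, the glucocorticoid receptor, at 93.8 and 199 CPM. Calca and Nr3c1 also reached 100 CPM in DES only, so the filter set their direction too.

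Of 10 NK genes counted in the T-gated cells 4 were lower in DES (Klre1, Klrk1, Klra4 and Klra7), where 6.33% of all genes were, none was higher, and the median ratio was 0.543. All 4 reached 100 CPM in CO only, so their direction was set by the filter. The cytotoxic list went both ways, with Fasl and Ccl5 of 9 genes higher, Gzma and Gzmc lower and a median ratio of 1.01. Klra4 stood at 126 and 46.5 CPM, a ratio of 0.370 (0.191 to 0.671), in 19 CO cells and 6 DES cells. Gzma, a granzyme of killer cells, stood at 356 and 130 CPM, but in 8 CO cells and 3 DES cells only, of which 1 DES cell held 37 of 39 UMIs. Ms4a4b was lower across many cells, at 675 and 242 CPM, in 42.3% (33.0 to 52.1) of thinned CO cells and 18.8% (10.1 to 30.5) of thinned DES cells. Spp1 had 178 UMIs in 24 CO cells and 2 UMIs in DES, and Ccl1 had 181 UMIs in 2 CO cells, 174 of them in 1 cell, and 8 UMIs in DES.

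**Figure D4:**
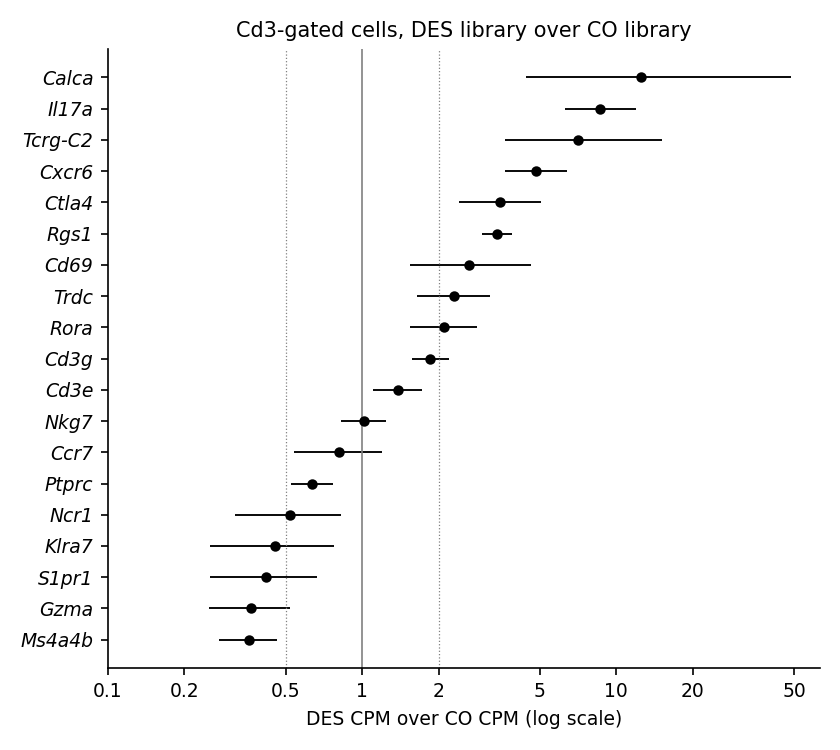
Ratio of DES to CO, on a log axis, of 19 genes in the T-gated cells without myeloid or plasma cells (111 CO and 64 DES cells), with 95% intervals of the counting error and dotted lines at 0.5 and 2. Il17a, Tcrg-C2 and Cxcr6 lie to the right at 8.59, 7.09 and 4.81, the Cd3 genes lie between the lines, and Ms4a4b and Gzma lie to the left at 0.359 and 0.364.

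In the T-gated cells too, genes of other tissue cells differed. Krt8 stood at 415 CPM in CO and 183 CPM in DES, and Col1a1 at 134 and 36.5 CPM. Egr1, a gene of the immediate early response, stood at 215 and 23.2 CPM, whereas Junb and Dusp1 of the same list were higher in DES, at 3026 against 1208 CPM and 339 against 132 CPM.

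The myeloid-gated cells inside the lymphocyte annotation also differed between the libraries. Among 146 CO and 120 DES cells, 27 of 1632 genes were higher in DES (1.65%) and 88 lower (5.39%), 7.05% in all, while the myeloid list summed to 22521 and 22615 CPM. This gate was itself drawn by myeloid UMIs, and its cells came from clusters that held the libraries in different numbers. Cluster 4 had 6 CO and 53 DES cells, cluster 2 had 50 and 11, cluster 6 had 38 and 12 and cluster 13 had 14 and 2, and the part of this mix in the ratios that follow was not tested. Spp1, the matrix protein osteopontin, stood at 54.5 and 443 CPM, a ratio of 8.14 (5.80 to 11.7), and Lgals3 at 693 and 2107 CPM, a ratio of 3.04 (2.74 to 3.37). Of 15 myeloid genes counted 4 were lower in DES (C1qa, C1qb, S100a8 and S100a9), where 5.39% of all genes were, and none was higher. Of 6 MHC class II genes only H2-Eb1 was lower, and none was higher. The other counted genes of both lists were thus within 2-fold. C1qa, a complement gene of tissue macrophages, stood at 340 and 123 CPM, and H2-Eb1 at 1321 and 357 CPM. S100a8, a calcium-binding protein of neutrophils, stood at 2784 and 565 CPM. The order of S100a8 was the opposite over all lymphocytes, at 881 and 2823 CPM, and there 3713 of the 4205 DES UMIs lay in 8 cells that also held a UMI of a Cd3 gene. Retnla stood at 1986 and 1.15 CPM.

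Whole sections gave the only replicated comparison, of 2 CO and 2 DES mice. The authors chose the blocks after a pathologist had looked for epithelium in both groups and for adenocarcinoma in DES. They then cored the blocks to the areas of interest. They described a large tissue fold in a CO section and limited cluster identification in a DES section. By the sample labels, these are CO section 2 and DES section 2. The part of this choice of regions in the section differences was not tested. UMIs were summed over 1433 and 1834 spots (12506177 and 11032957 UMIs) in the CO sections and over 1575 and 1357 spots (9117099 and 9880021 UMIs) in the DES sections. By the quasi-likelihood test of edgeR, with p-values adjusted after Benjamini and Hochberg, 376 of 14098 genes were higher in DES (2.67%) and 371 lower (2.63%). Of 229 list genes tested, 16 were higher and 13 lower, beside 5.3% of all genes in either direction. With DES section 1 or DES section 2 left out, 0 list genes passed, while 51 higher and 33 lower or 34 higher and 31 lower passed without CO section 2 or CO section 1. In a section, fewer cells of a type and less RNA per cell cannot be told apart. The p-values rest on a spread that edgeR pools over genes, since 2 sections against 2 cannot reach 0.05 in an exact test.

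Antibody genes lay higher in the DES sections, with Igkc and Ighm of 10 plasma cell genes past the threshold, where 2.67% of all genes were higher, and none lower. For Igkc, Igha and Jchain this was the opposite of their order among the isolated lymphocytes, where Ighm was counted but was within 2-fold. Igkc stood at 186 and 362 CPM in the CO sections and at 2726 and 5220 CPM in the DES sections, and rose by 3.67 on the log2 scale (SE 0.52, edgeR adjusted p = 0.0312). Ighm, the IgM heavy chain, stood at 14.8 and 29.1 CPM in CO and at 214 and 197 CPM in DES (log2 3.03, SE 0.35, edgeR adjusted p = 0.0241). Igha stood at 129 and 705 CPM in CO and at 3192 and 5414 CPM in DES, but did not pass (edgeR adjusted p = 0.110), and neither did Jchain, at 37.8 and 108 CPM against 496 and 834 CPM (edgeR adjusted p = 0.0596). Both DES sections lay above both CO sections for each of these genes. A UMI of Igkc was found in 14.2% and 29.2% of the CO spots and in 54.8% and 75.0% of the DES spots. For Ighm these shares were 10.5% and 14.7% in CO and 18.4% and 22.8% in DES. In the DES sections 1 spot held 332 of 1948 and 1 spot 389 of 1946 UMIs of Ighm. Ighg2c, an IgG heavy chain, stood at 8.24 and 18.9 CPM in CO and at 113 and 457 CPM in DES (edgeR adjusted p = 0.0630).

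Of 5 B cell genes tested 1 rose and 1 fell, beside 2.67% and 2.63% of all genes. Cd79a rose, at 0.320 and 0.725 CPM in CO and 7.13 and 11.8 CPM in DES (log2 3.98, SE 0.56, edgeR adjusted p = 0.0312). Blnk, an adaptor of B cell signalling, fell, at 49.7 and 69.1 CPM in CO and 24.7 and 20.04 CPM in DES (edgeR adjusted p = 0.0310). Blk, a kinase of B cells and some γδ T cells, was not in the B cell list but in that of γδ and type 17 genes. Of 8 genes of that list tested Blk rose and Maf fell. Blk went from 0.240 and 0.363 CPM to 4.83 and 5.06 CPM (edgeR adjusted p = 0.0276). Igkc and Cd79a were thus lower in DES among all isolated lymphocytes and higher in DES in the sections, though Cd79a was past 2-fold among the cells only with the myeloid cells of the annotation included.

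The T cell genes of the sections missed the threshold, with 0 of 13 called and a median log2 difference of 1.70, beside -0.01 over all genes tested. Cd3d stood at 0.960 and 0.906 CPM in CO and at 4.17 and 6.38 CPM in DES (edgeR adjusted p = 0.0587), and Cd3e at 0.480 and 0.272 CPM and at 2.30 and 4.45 CPM (edgeR adjusted p = 0.0732). Cxcr6 passed, at 0.880 and 1.27 CPM in CO and 6.47 and 8.401 CPM in DES (log2 2.58, SE 0.40, edgeR adjusted p = 0.0380). Of 6 tissue residency genes tested it alone rose, Itga1 fell, and the list's median log2 difference was -0.59. Rgs1 of that list, higher in the DES T-gated cells, had a log2 difference of -1.37 in the sections (edgeR adjusted p = 0.170). Il7r, the receptor of the survival cytokine IL-7, rose from 0.480 and 0.544 CPM to 4.83 and 5.26 CPM (edgeR adjusted p = 0.0304), and Ltb, a cytokine that shapes lymphoid tissue, from 4.40 and 5.89 CPM to 21.4 and 17.9 CPM (edgeR adjusted p = 0.0337). Ccl3 rose from 0.7996 and 0.906 CPM to 9.76 and 5.67 CPM (edgeR adjusted p = 0.0351). Of 7 recirculation and memory genes tested only Il7r rose. Of 11 chemokine and cytokine genes Ltb and Ccl3 rose, beside 2.67% of all genes, and none in either list fell. Cxcr6 and Ccl3 were higher in DES both among all isolated lymphocytes and in the sections. Without the cells that held myeloid UMIs Ccl3 was under 50 CPM in both libraries and was not counted, at 18.0 CPM in CO (26 UMIs) and 39.9 CPM in DES (21 UMIs), a ratio of 2.22 (1.19 to 4.11).

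Of 6 NK genes tested in the sections Ncr1 fell, and of 10 cytotoxic genes Gzmb fell, where 2.63% of all genes fell, and none rose. Ncr1 stood at 3.36 and 5.17 CPM in CO and 0.439 and 0.506 CPM in DES (log2 -3.34, SE 0.49, edgeR adjusted p = 0.0338), and it was lower in the DES lymphocytes too. Its call among the lymphocytes was lost without the cells that held myeloid UMIs. Gzmb, a granzyme of killer cells, fell from 6.96 and 7.79 CPM to 0.439 and 0.911 CPM (edgeR adjusted p = 0.0282). Prf1, the pore-forming protein perforin, stood at 5.28 and 3.81 CPM and at 0.439 and 1.52 CPM (edgeR adjusted p = 0.110), and Gzma at 10.1 and 10.6 CPM and at 0.768 and 3.95 CPM (edgeR adjusted p = 0.140). Gzmm, another granzyme, lay the other way, at 1.44 and 0.181 CPM in CO and 5.26 and 4.35 CPM in DES (log2 2.30, SE 0.83, edgeR adjusted p = 0.182). Ctsw and Srgn of the same list had log2 differences of 0.05 and 0.0036.

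**Figure D5:**
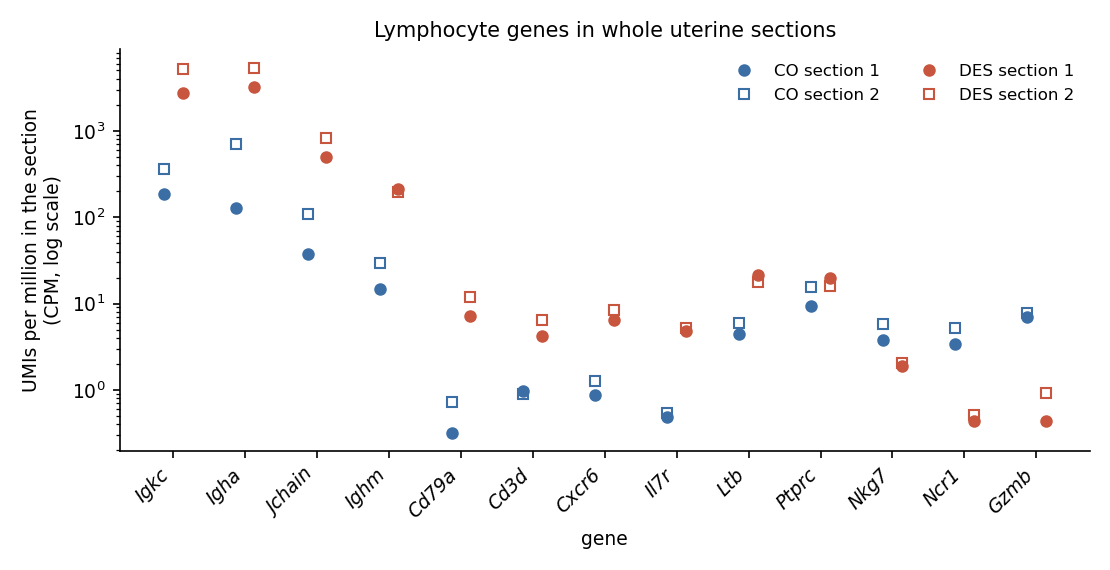
CPM on a log axis of 13 genes in each of the 2 CO and 2 DES sections, 1 point per section. Igkc, Cd79a, Cxcr6 and Il7r lie higher in both DES sections, Ncr1 and Gzmb lie lower, and Ptprc lies at 9.28 and 15.7 CPM in CO and 19.9 and 16.0 CPM in DES.

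None of the 6 markers given for lymphocytes passed in the sections. Ptprc stood at 9.28 and 15.7 CPM in CO and 19.9 and 16.0 CPM in DES (edgeR adjusted p = 0.588), and Rac2 at 19.4 and 33.4 CPM and at 38.5 and 28.0 CPM, where the groups overlapped (edgeR adjusted p = 0.849). Cd52 stood at 37.1 and 48.1 CPM and at 128 and 87.7 CPM (edgeR adjusted p = 0.0697). Nkg7 stood at 3.76 and 5.80 CPM and at 1.86 and 2.02 CPM (edgeR adjusted p = 0.105), and Ms4a4b at 2.64 and 5.62 CPM and at 1.10 and 2.94 CPM (edgeR adjusted p = 0.338). Il17a was not tested, with no UMI in 3 sections and 0.101 CPM in a DES section.

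Of 143 list genes counted in both readouts, Cxcr6 and Ccl3 were higher in both, Ncr1 was lower in both, and these 3 genes had reached 50 CPM only in the library where they were higher. In the same set Igkc and Cd79a were lower among all the cells annotated as lymphocytes and higher in the sections. Of the others, 12 were higher and 20 lower in the cells alone, 9 rose and 3 fell in the sections alone, and 94 were called in neither. Whether the few shared or opposed calls exceed chance was not tested. Beside the genes with section values above, the list genes that rose were Ikzf2, Itgb2, Selplg, Arhgdib, Itgax, Kit, Junb and Upk3b. Those that fell were Isg15, Ifit3, Mcpt4, Tpsb2, Rgs5, Myh11, Acta2, Cldn15, Itga1 and Maf, of which Maf was higher in the DES T-gated cells. Several of these are not genes of lymphocytes alone, among them Kit, Mcpt4 and Tpsb2 of mast cells and Myh11 and Acta2 of smooth muscle. The myeloid list had 0 of 16 genes called, and Lyz2 stood at 121 and 321 CPM in CO and at 1500 and 738 CPM in DES (edgeR adjusted p = 0.107).

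The genes that carried these results lie at the following places in the mm10 build, per the GENCODE annotation. Igkc lies at chr6:70726435-70726966 on the plus strand and Igha at chr12:113254830-113260236 on the minus strand, each a constant-region gene. Jchain lies at chr5:88519809-88527891 (minus), Il17a at chr1:20730905-20734496 (plus), Cxcr6 at chr9:123806475-123811760 (plus) and Ncr1 at chr7:4337724-4345164 (plus). The values cover each whole gene, as the authors' counts do.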

How the data were processed

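The samples, grouped by their labels, were 1 CO and 1 DES library of single cells and 2 sections of each group for spatial RNA. Cells were counted by the authors as UMIs per gene (10x 3' chemistry) with Cell Ranger 3.0.1, per the labels on mm10, removed doublets and named clusters by marker genes. They counted spots with Space Ranger 1.2.2. The deposited counts are not normalized. The deposited metadata also hold the sequencing saturation as a fraction, which the authors computed and which was not used.

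From the counts, UMIs of the cells annotated as lymphocytes were summed per library and given as CPM. Genes with at least 50 CPM in either group (100 CPM within gates) and a ratio of at least 2 or at most 0.5 were called, with no test. A gene below the cut in a group could be called lower there but not higher. A ratio against no UMI was taken against 3 UMIs over the group. Intervals cover counting error only, as do all shares. Shares at equal depth used 1000 UMIs per cell (seed 20230), and no lymphocyte was left out. Clusters were built with scanpy 1.11.5 and leidenalg 0.10.2. Scrublet marked 20 of 12253 annotated CO cells (0.163%) and 49 of 9701 DES cells, 2 and 6 of them lymphocytes, and no cell was removed. The authors had already removed doublets, and how well the caller worked on the cells left was not tested.

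Section sums were tested with edgeR 4.0.16 (TMM, filterByExpr, quasi-likelihood, Benjamini-Hochberg at 0.05). On simulated data of 14098 genes for the comparison of DES with CO sections this recovered 70.0% of 4-fold rises, 47.9% of 4-fold falls, 4.17% of 2-fold rises and none of 2-fold falls. DESeq2 1.42.0, other thresholds, scalings and left-out sections were alternatives.

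The named genes were the given markers, genes of 30 lists, and the 10 largest and 10 smallest ratios of each comparison. The members and lists were chosen with earlier results of these data known. A few genes are not reported here.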

Additional observations from a re-analysis of the deposited data

Results flagged for a closer look

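Among the 6611 DES cells to which the annotation gave no cell type, 80 cells (1.21%, exact 95% interval 0.961 to 1.504) held at least 2 UMIs of Cd3d and Cd3g summed, above the 0.0521% of annotated DES mesothelial cells and the 0.0381% of annotated DES epithelial cells, which should lack them. Nkg7 reached 2 UMIs in 41 of these unnamed DES cells (0.620%), against 0 of 3837 mesothelial cells (which allows up to 0.0782%, taken as 3 cells of the total). Cd79a did so in 27 of them (0.408%), again against 0 of 3837. In the unnamed CO cells the shares were 0.606%, 0.402% and 0.561% of 20134. The background in CO cells that should lack these genes reached 0.310% (0.134 to 0.609) and 0.271% (0.109 to 0.558) of 2583 epithelial cells for Cd3 and Nkg7, whose intervals overlapped those of the unnamed cells (0.503 to 0.723 and 0.320 to 0.4998). For Cd79a it was 0.233% of 6866 mesothelial cells and 0.232% of the epithelial cells (0.0853 to 0.505). The epithelial interval overlapped that of the unnamed cells with Cd79a (0.463 to 0.674). The unnamed cells that met these cuts had median depths of 2604 to 3287.5 UMIs in DES, and the lymphocytes that met them 4060 to 5311. In CO the unnamed cells were deeper for Cd3 (5075.5 against 3370) and Nkg7 (5921 against 4221) and less deep for Cd79a (6282 against 6629). At least 100 UMIs of Jchain were found in 17 unnamed CO cells and in 0 unnamed DES cells, which by the same rule of 3 cells allows a share of up to 0.0454%. These cells entered no comparison. Why they were left unnamed was not tested.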

How the results depend on the processing

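Among the shares, CO lymphocytes were 3.45% of annotated cells, 1.31% of all cells, 3.02% without cells lacking Ptprc and, in alternatives chosen after seeing the data, 4.34% with cells lacking counts and 1.92% as T, B or NK gated cells with little myeloid RNA. DES lymphocytes were 2.46%, 1.47% of all cells and 0.938% by that last rule. Thinning to 2000 UMIs (230 DES cells left) or not at all moved the Ptprc share from 49.6% to 72.6% or 87.2% in CO and from 51.5% to 69.1% or 90.4% in DES. By the same steps the T gate took 23.9% and 27.7% (CO) and 26.1% and 30.1% (DES), the B gate 18.9% and 21.3% in CO, and the ungated 44.7% and 39.7% (CO) and 60.4% and 56.1% (DES). Requiring 2 UMIs gave T 8.98%, B 11.6%, NK 7.80% and ungated 71.6% in CO, and T 13.8% and ungated 77.0% in DES. With the later gates 5.20% (CO) and 5.86% (DES) stayed ungated. Of the genes called between DES and CO lymphocytes, the 182 higher became 79 by means per cell, 379 at 20 CPM, 103 at 100 CPM, 565 at 1.5-fold and 38 at 3-fold, and, chosen after seeing the data, 87 without plasma cells, 96 in T-gated, 27 in myeloid-gated and 73 in T-gated cells without myeloid or plasma cells. The 100 lower became 178 without the 20 most abundant genes, 224 at 20 CPM, 57 at 100 CPM, 175 at 1.5-fold and 55 at 3-fold. As log2 ratios, Cd14 turned to -0.69 without myeloid cells, G0s2 to 1.78 in T-gated cells, Samhd1 to -0.77 in T-gated cells without myeloid or plasma cells, and in myeloid-gated cells Camp turned to -8.00, Ngp to -7.83, S100a8 to -2.30 and S100a9 to -1.66. In the sections DESeq2 called 822 higher and 969 lower, and 48 and 33 list genes, no filter gave 27 higher list genes, and leaving out a section gave 3 to 1311 higher and 0 to 1508 lower, or 0 to 51 and 0 to 33 list genes. Rac2 (log2) ranged from -0.19 to 0.54 without 1 section, and was negative without CO section 1 (-0.19) or DES section 1 (-0.09). With a replicate block 298 rose and 229 fell, and the numbers pair nothing, since same-numbered sections correlated at -0.0254. The causes were not tested, and few cells limit the T and NK counts.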
